A study of Homo sapiens with 12 samples.

Results

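The genes described here are 6 transporters of the ATP-binding cassette (ABC) family: ABCB1, ABCB4, ABCB10, ABCA1, ABCA3 and ABCA4. They were taken by symbol from the annotation of the array, which names 5499 genes, and they are read by 8 probes; 16 further ABC genes are on the array. RNA from H460, a human lung cancer cell line, was hybridised to 12 arrays, each holding RNA of treated cells in 1 channel and RNA of untreated cells in the other. The treatment lasted 24 h, with 1 µM 5-fluorouracil (5-FU), 0.2 µM cytarabine, 5 µM cisplatin, 5 nM paclitaxel or 0.2 µM cytochalasin D. The first 2 are antimetabolites of pyrimidine and DNA synthesis, cisplatin crosslinks DNA, paclitaxel stabilises microtubules and cytochalasin D blocks actin assembly. 5-FU has 4 arrays, 2 replicates with treated RNA in channel 2 and the same 2 replicate numbers with the channels reversed, and each other drug has 2 arrays with treated RNA in channel 1. All groups are the same cell line, and nothing in the labels says that replicates came from separate cultures, so the p-values measure the spread between these samples, which may be technical. The comparison asks how the RNA of these transporters differed between drug-treated and untreated cells, and between the 5 drugs, each of which was given at a single dose.

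ABC transporters use ATP to move lipids, peptides, drugs and other molecules across membranes, and their best-known role in cancer cells is the export of chemotherapy drugs. ABCB1 is P-glycoprotein, the multidrug efflux pump that exports paclitaxel among many other compounds. ABCB4 is its closest relative and moves phosphatidylcholine to the outer leaflet of the bile canalicular membrane in liver. ABCB10 lies in the inner mitochondrial membrane and is tied to haem synthesis. ABCA1 passes cholesterol and phospholipid to apolipoprotein A-I, ABCA3 loads surfactant lipid into the lamellar bodies of alveolar type II cells, and ABCA4 clears retinoid from photoreceptor discs.

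The start regions of ABCB1 and ABCA1 are shown because these are the best-known efflux genes of the set, and neither passed the test in any drug. The sequences are RefSeq's (GRCh38.p14), 250 bases ending just before the gene's start, on the minus strand. ABCB1 has 2 listed start regions, and the 1 printed lies at chr7:87600885-87601134. The ABCA1 region lies at chr9:104928156-104928405. ABCB4 and ABCB1 are neighbours on chromosome 7 with 0 protein-coding genes between them. ABCB4 and ABCA4 had no entry in the table. Capitals mark motif matches on either strand.
ABCB1: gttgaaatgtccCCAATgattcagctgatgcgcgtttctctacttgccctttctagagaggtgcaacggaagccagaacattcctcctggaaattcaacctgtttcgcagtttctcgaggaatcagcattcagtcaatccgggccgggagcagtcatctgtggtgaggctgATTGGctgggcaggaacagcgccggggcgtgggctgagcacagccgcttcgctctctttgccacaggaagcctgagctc
ABCA1: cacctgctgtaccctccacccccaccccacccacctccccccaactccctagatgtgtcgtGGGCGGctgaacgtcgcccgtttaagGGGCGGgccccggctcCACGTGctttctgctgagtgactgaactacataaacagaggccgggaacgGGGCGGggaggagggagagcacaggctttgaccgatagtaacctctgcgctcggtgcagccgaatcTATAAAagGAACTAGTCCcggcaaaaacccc
In the ABCB1 sequence the capitals are CCAAT boxes (letters CCAAT, or ATTGG for the other strand) at positions −238 and −79 from the start. In the ABCA1 sequence they are GC boxes (GGGCGG) at −189, −163 and −97, an E-box (CACGTG) at −147, a TATA box (TATAAA) at −31 and a p53 half-site at −23. ABCB10 had 4 GC boxes, ABCA3 had 1, and the other ABCB1 region had no match to any of these motifs or to the AP-1 site (TGACTCA). Among 35116 such windows of all genes, 32.0% held a CCAAT box, 42.6% a GC box, 10.7% a TATA box, 6.34% an E-box, 5.57% a p53 half-site and 4.2% an AP-1 site. The listed windows run 250 bases before to 50 after a start, and motifs and shares were counted in the 250 bases before it. A match is a description of letters.

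Each value below is a log2 ratio of treated over untreated RNA within an array, after centring the array on its median, so it carries no expression level and reads a gene against the other genes of that array. The direction is likely and not stated: it is the sign under which MDM2 and CDKN1A, targets of p53, were higher in 5-FU (means of 1.48 and 2.49), and under it they were also higher in cisplatin (2.65 and 3.66). The log base is not stated either; log2 was assumed, and folds would change with another base. Arrays lacked 21.5 to 46.7% of probes for 5-FU and 6.44 to 14.5% for the other drugs. "Rose" and "fell" are kept for an adjusted p under 0.05 in limma (2-sided, Benjamini-Hochberg over all features of a comparison, 2 replicates a drug), and errors are standard errors.

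ABCB4 had the lowest ratios of the 6 genes in cytarabine, cisplatin, paclitaxel and cytochalasin D. In 5-FU the lowest reading was 1 of ABCB10, at −0.99, and its other reading, −0.36, lay above the lowest of ABCB4. The ABCB4 probe 78975 had a value on all 12 arrays. Under cytarabine it read −2.14 and −1.89 on the 2 arrays, the lowest values of any of these 8 probes. Paclitaxel arrays read −1.12 and −1.49. Cisplatin arrays read −0.85 and −1.53. Cytochalasin D arrays read −1.57 and −0.90. The 3 drugs therefore overlapped with each other, and none of their arrays reached down to the cytarabine pair. The 5-FU arrays read −0.26 and −0.071 with treated RNA in channel 2, and −0.069 and −0.72 with the channels reversed. All 12 arrays were below 0, and the 4 5-FU arrays lay above the other 8.

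The second ABCB4 probe, 4285457, had values on 4 arrays, those of cisplatin and cytochalasin D. It read 0.46 and 0.13 in cisplatin, above 0 where probe 78975 was below it, and −0.59 and −0.76 in cytochalasin D, below 0 as was the other probe. The probes thus disagreed in sign for cisplatin. Probe sequences were not used here, so the transcript each probe reads, also against the near relative ABCB1, is taken from the annotation and was not checked. The mean of both, used in the fit of the gene, holds 2 probes in these 2 drugs and 1 probe in the other 3, and each result below is given with probe 78975 by itself where that changes a call.

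**Figure D1:**
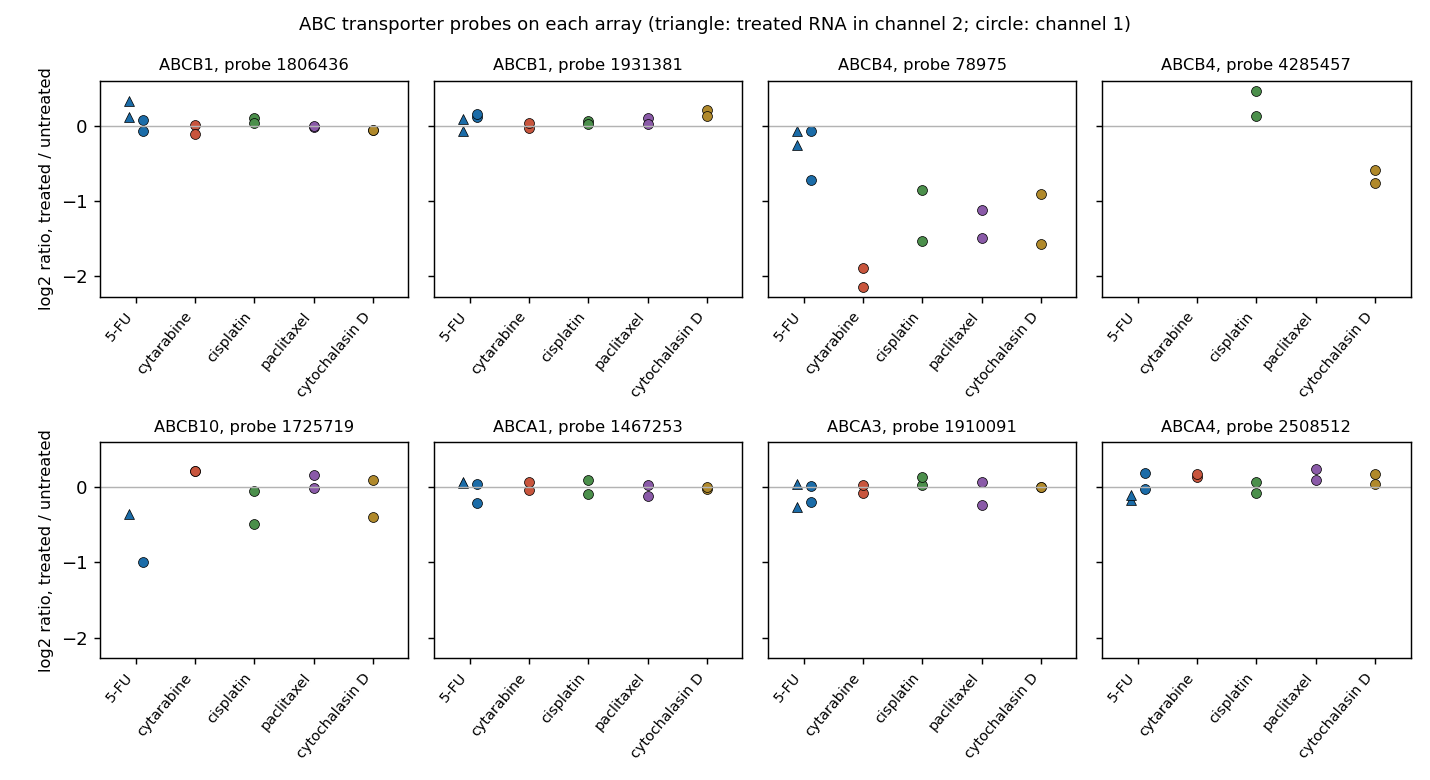
Log2 ratio of treated over untreated RNA on each array (y axis) for the 8 probes, by drug (x axis); triangles have treated RNA in channel 2 and circles in channel 1. Probe 78975 of ABCB4 runs from −2.14 to −0.069 and is the 1 panel with all points below 0, while the ABCB1, ABCA1, ABCA3 and ABCA4 panels stay within 0.33 of 0.

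In the fit, ABCB4 fell under cytarabine, with a log2 ratio of −1.90 ± 0.18 (0.268 of the untreated level, limma adjusted p = 0.000923, n = 2). This ratio ranked 12 from the lowest of 4683 features tested. Under paclitaxel it fell by 1.19 (SE 0.18, 0.438 of untreated, limma adjusted p = 0.0106), rank 28 of 4796. Under cytochalasin D it fell by 0.84 (SE 0.18, 0.558 of untreated, limma adjusted p = 0.0271), rank 86 of 4835. The ratio was −0.33 ± 0.18 in cisplatin (adjusted p = 0.225 in limma) and −0.28 ± 0.14 in 5-FU (adjusted p = 0.287), neither past the threshold. With probe 78975 alone the cisplatin ratio was −1.07 ± 0.24 and passed (limma adjusted p = 0.0252), and 5-FU did not pass (−0.28 ± 0.20, adjusted p = 0.459).

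The cytarabine fall of ABCB4 passed in the 19 alternatives run, with values of −2.11 to −1.63. The paclitaxel call was lost without 5-FU replicate 1 (−0.98, limma adjusted p = 0.0504), which feeds the channel term, and without paclitaxel replicate 2 (−1.01, adjusted p = 0.0657). The cytochalasin D call was lost without 5-FU replicate 1 (−0.63, limma adjusted p = 0.123), without cytochalasin D replicate 1 (−0.71, 0.172) and without cytochalasin D replicate 2 (−0.97, 0.0829).

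**Figure D2:**
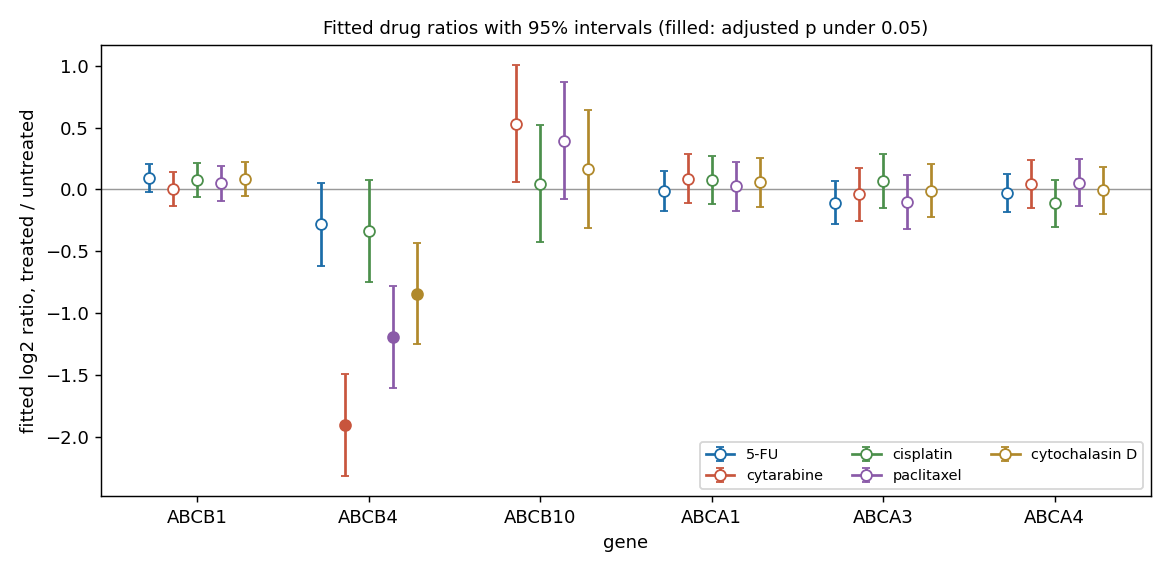
Fitted log2 ratio of treated over untreated RNA (y axis) with 95% intervals for each gene (x axis) and drug (colour), 2 replicates a drug; filled points have adjusted p under 0.05. Filled points occur for ABCB4 alone, in cytarabine (−1.90), paclitaxel (−1.19) and cytochalasin D (−0.84), and ABCB10 has no 5-FU point because it had 1 replicate there.

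Between drugs, ABCB4 ran from lowest to highest as cytarabine, paclitaxel, cytochalasin D, cisplatin and 5-FU. No neighbours in this order differed past the threshold: cytarabine minus paclitaxel was −0.71 (95% interval −1.18 to −0.23, limma adjusted p = 0.166), paclitaxel minus cytochalasin D was −0.35 (−0.82 to 0.12, 0.57), cisplatin minus cytochalasin D was 0.51 (0.034 to 0.98, 0.189) and 5-FU minus cisplatin was 0.054 (−0.48 to 0.58, 0.916). With probe 78975 alone, the 1 ABCB4 probe with values in 5-FU, 5-FU minus cisplatin was 0.80 (95% interval 0.062 to 1.53, limma adjusted p = 0.161). Of the 10 pairs of drugs, 4 passed for the mean of both probes. ABCB4 was higher in 5-FU than in cytarabine by 1.62 ± 0.23 (limma adjusted p = 0.00302), and this pair passed under the 19 alternatives run. It was lower in cytarabine than in cisplatin, a difference of −1.57 ± 0.20 (limma adjusted p = 0.00336), but with probe 78975 alone the difference was −0.83 ± 0.28 and did not pass (adjusted p = 0.0728). It was higher in 5-FU than in paclitaxel by 0.91 ± 0.23 (limma adjusted p = 0.042). It was lower in cytarabine than in cytochalasin D, at −1.06 ± 0.20 (limma adjusted p = 0.0431).

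The last 2 of these pairs were each lost without 8 of the 10 replicates left out in turn, those of all drugs but cisplatin, with limma adjusted p of 0.0533 to 0.368 for 5-FU minus paclitaxel and of 0.0578 to 0.187 for cytarabine minus cytochalasin D. With the replicate block, the adjusted p of these 2 pairs of ABCB4 were 0.0509 and 0.0558. Probe 78975 alone kept 5-FU minus cytarabine (1.62 ± 0.32, limma adjusted p = 0.0115) and no other pair. Probe 4285457 by itself differed between cisplatin and cytochalasin D by 0.97 ± 0.15 (limma adjusted p = 0.0328), where probe 78975 gave 0.047 (95% interval −0.61 to 0.70). A moderated F over the 4 drugs that share an orientation passed for ABCB4 (F = 20.9, limma adjusted p = 0.0135), and did not for probe 78975 alone (F = 3.79, adjusted p = 0.172). 5-FU minus another drug compares, in effect, its reversed arrays with that drug, since both have treated RNA in channel 1.

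**Figure D3:**
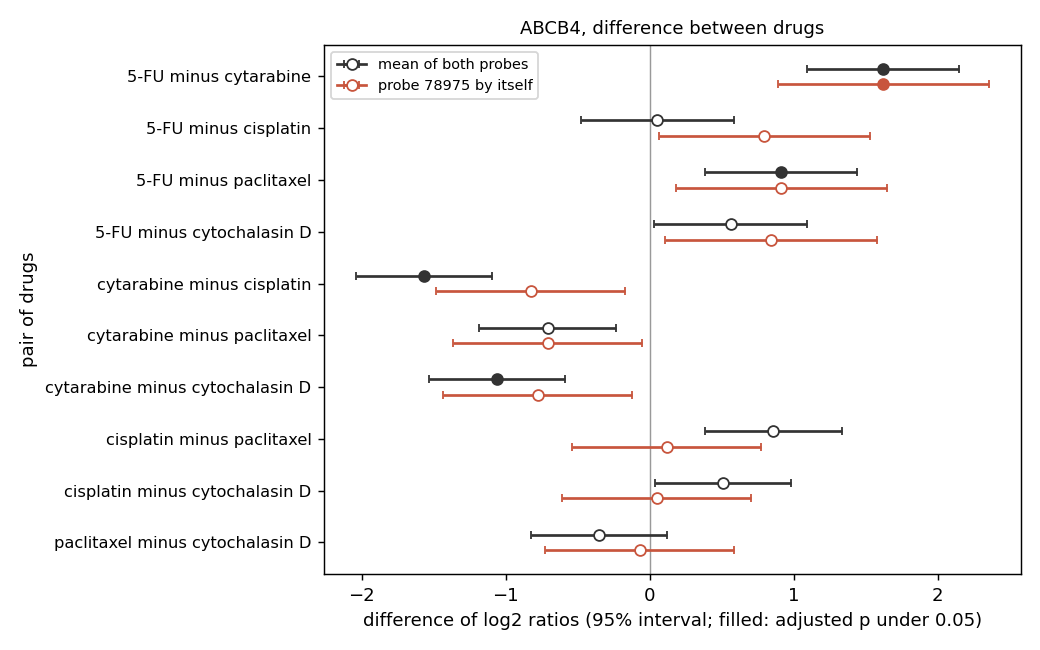
Difference of ABCB4 log2 ratios between drugs (x axis, 95% interval) for the 10 pairs (y axis), from the mean of both probes (black) and from probe 78975 by itself (red); filled points have adjusted p under 0.05. The 4 filled black points include 1 pair, 5-FU minus cytarabine at 1.62, that is also filled in red, and the 2 estimates part most in the pairs with cisplatin.

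ABCB1 was read by probes 1806436 and 1931381, each with 12 values. Probe 1806436 read 0.12, 0.33, 0.073 and −0.073 on the 5-FU arrays and between −0.11 and 0.099 on the other 8. Probe 1931381 read 0.094, −0.074, 0.12 and 0.15 in 5-FU, 0.21 and 0.13 in cytochalasin D, and between −0.029 and 0.10 on the remaining 6 arrays. For the mean of both probes the 2 cytarabine arrays were lowest, and the arrays of the other 4 drugs overlapped. Fitted ratios of ABCB1 were 0.092 ± 0.049 in 5-FU, 0.0018 ± 0.059 in cytarabine, 0.078 ± 0.059 in cisplatin, 0.049 ± 0.059 in paclitaxel and 0.084 ± 0.059 in cytochalasin D, with limma adjusted p of 0.298 to 0.984. The 95% intervals of the 5 drugs lay between −0.14 and 0.22 for the mean of both probes. In cisplatin probe 1806436 by itself gave 0.18 (95% interval 0.031 to 0.33, limma adjusted p = 0.0942), and probe 1931381 gave −0.025. Spot intensities were not analysed, so it is not known whether these ABCB1 probes read above background.

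The probes annotated to ABCB4 and ABCB1, neighbours on the chromosome, had unlike values in cytarabine, paclitaxel and cytochalasin D. The cytarabine interval was −2.31 to −1.49 for ABCB4 and −0.14 to 0.14 for ABCB1, and these do not overlap. The paclitaxel intervals were −1.60 to −0.78 and −0.089 to 0.19, and the cytochalasin D intervals −1.25 to −0.43 and −0.055 to 0.22, also apart. In 5-FU the intervals overlapped, at −0.61 to 0.056 for ABCB4 and −0.021 to 0.21 for ABCB1. They also overlapped in cisplatin for the mean of both ABCB4 probes, at −0.74 to 0.077 and −0.061 to 0.22. With probe 78975 alone the cisplatin interval of ABCB4 was −1.64 to −0.51, apart from that of ABCB1. The difference between the genes itself was not tested.

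ABCB10 had 10 values from probe 1725719 and lacked both arrays of 5-FU replicate 2. It read −0.36 and −0.99 on the 2 arrays of 5-FU replicate 1, 0.22 and 0.21 in cytarabine, −0.051 and −0.49 in cisplatin, −0.014 and 0.17 in paclitaxel, and −0.39 and 0.089 in cytochalasin D. The lowest value is a 5-FU array and the 2 highest are the cytarabine arrays. With 1 replicate, 5-FU was not fitted for ABCB10. Taking its 2 arrays as separate observations gave −0.68 (limma adjusted p = 0.0136), but both arrays carry the same replicate number. Fitted ratios of ABCB10 were 0.53 ± 0.20 in cytarabine (limma adjusted p = 0.101), 0.048 ± 0.20 in cisplatin (0.891), 0.39 ± 0.20 in paclitaxel (0.262) and 0.17 ± 0.20 in cytochalasin D (0.625). These sit above the array values because the channel effect subtracted was −0.32, from 1 pair of 5-FU arrays, below the 5th percentile of all features (−0.31). Without the channel term they were 0.21, −0.27, 0.076 and −0.15, so the sign of the cisplatin and cytochalasin D ratios of ABCB10 rests on that term. Pairs with 5-FU were not fitted for ABCB10. Among the fitted pairs the widest gap was cytarabine minus cisplatin, where the channel term cancels, at 0.48 ± 0.20 (95% interval 0.0089 to 0.96, limma adjusted p = 0.124).

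ABCA1, the cholesterol exporter, read 0.058, 0.069, 0.045 and −0.22 on the 5-FU arrays, −0.034 and 0.061 in cytarabine, 0.094 and −0.091 in cisplatin, −0.12 and 0.024 in paclitaxel, and −0.031 and −0.00059 in cytochalasin D. The drugs overlapped, and the lowest value came from a single reversed 5-FU array. Fitted ratios of ABCA1 ran from −0.012 ± 0.069 in 5-FU to 0.089 ± 0.085 in cytarabine, with limma adjusted p of 0.474 to 0.947 and 95% intervals between −0.17 and 0.29.

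ABCA3, the surfactant lipid transporter, read −0.27, 0.035, 0.013 and −0.20 in 5-FU, −0.075 and 0.023 in cytarabine, 0.034 and 0.13 in cisplatin, −0.24 and 0.061 in paclitaxel, and 0.0061 and −0.0014 in cytochalasin D. Its 2 cisplatin arrays were both above 0, within the range of the other drugs at the lower value and above it at the higher. Fitted ratios of ABCA3 ran from −0.11 ± 0.076 in 5-FU to 0.070 ± 0.093 in cisplatin (limma adjusted p of 0.455 to 0.958, 95% intervals between −0.32 and 0.29).

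ABCA4, the retinal transporter, read −0.17, −0.11, 0.19 and −0.028 in 5-FU, 0.13 and 0.17 in cytarabine, −0.078 and 0.074 in cisplatin, 0.24 and 0.088 in paclitaxel, and 0.17 and 0.036 in cytochalasin D. Arrays with treated RNA in channel 2 gave its 2 lowest values and the channel effect was 0.11, so the fitted ratios of the 4 drugs hybridised in 1 orientation are lower than their array values. The fitted ratios of ABCA4 ran from −0.11 ± 0.082 in cisplatin to 0.054 ± 0.082 in paclitaxel (limma adjusted p of 0.373 to 0.973, 95% intervals between −0.30 and 0.24). For ABCA1, ABCA3 and ABCA4, the largest difference among the 10 pairs of drugs in absolute size was 5-FU minus cisplatin in ABCA3, at −0.18 ± 0.12 (95% interval −0.45 to 0.10, limma adjusted p = 0.417).

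Counted over the genes, the fit called 0 of 5 in 5-FU (limma, 0 of 5 also at an unadjusted p under 0.05), where 4.44% of all features rose and 11.2% fell. In cytarabine 1 of 6 fell and 0 rose, against 11.1% and 10.9% of all features. In cisplatin 0 of 6 were called (limma, 0 also unadjusted), against 8.54% rising and 7.8% falling. In paclitaxel 1 of 6 fell, against 4.05% falling and 2.65% rising of all features, and in cytochalasin D 1 of 6 fell, against 6.33% and 4.38%. All 3 calls are ABCB4, and with 6 genes a count of 0 or 1 is near these shares, so the counts say nothing particular about the set.

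Over the pairs, the calls were likewise those of ABCB4. The pairs with 5-FU called 1 gene against cytarabine (17.9% of all features), 0 against cisplatin (14%), 1 against paclitaxel (10.9%) and 0 against cytochalasin D (11.1%). Cytarabine minus cisplatin called 1 gene (22.1% of all features) and cytarabine minus cytochalasin D called 1 (3.2%). Cytarabine minus paclitaxel called 0 genes, as for all 6558 features tested (0% in limma, with 1153 features at an unadjusted p under 0.05). Cisplatin minus paclitaxel (5.8%), cisplatin minus cytochalasin D (7.74%) and paclitaxel minus cytochalasin D (0.204%) called 0 genes. Without adjustment, ABCB4 alone had p under 0.05 in 5-FU minus cytochalasin D, cytarabine minus paclitaxel, cisplatin minus paclitaxel and cisplatin minus cytochalasin D, and no gene of the 6 did in 5-FU minus cisplatin or paclitaxel minus cytochalasin D. Probe 78975 of ABCB4 by itself had an unadjusted p of 0.037 in 5-FU minus cisplatin (limma, adjusted p = 0.161). The F over 4 drugs called 1 of the 6 genes, against 13% of all features.

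Named genes whose 10 replicate ratios ran most like those of a transporter were found among the 2452 genes with all 10 values, by Pearson's r without a p-value. The points share the cell line and, for 4 drugs, the channel orientation, and the best of so many genes will be high for any gene. For ABCB4 they were METTL4 (r = 0.941), RWDD1 (0.934) and CD163 (0.929), whose fitted ratios were far smaller: METTL4 read −0.084 in cytarabine and 0.24 in cisplatin. With probe 78975 alone they were CYP2C8 (0.92), CBLB (0.916) and TOX2 (0.902). CBLB, a ubiquitin ligase, had ratios near those of this probe, at −1.89 in cytarabine, −1.59 in paclitaxel, −1.16 in cytochalasin D, −1.13 in cisplatin and 0.098 in 5-FU. The lists for the gene mean and for the single probe share none of their 3 names.

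For ABCB1 the most alike were ZMYND10 (r = 0.934), GSG1 (0.928) and CD163 (0.913). With its probe 1806436 alone they were STAT3 (0.932), SGK1 (0.922) and PHB1 (0.899). With its probe 1931381 alone they were ITGA7 (0.871), PTPN11 (0.867) and TMEM50B (0.864). The lists for the ABCB1 mean and for its single probes share no name. For ABCA1 they were EXOSC2 (0.836), UTP14C (0.818) and TDRD9 (0.783). For ABCA3 they were POLR2G (0.914), ANGPT1 (0.837) and CMAHP (0.817), and for ABCA4 CXCL11 (0.892), MGAT2 (0.888) and TMEM185B (0.885). ABCB10 had too few values for this comparison.

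Of the 16 other ABC genes on the array, 6 could be tested in 5-FU, 11 in cytarabine and paclitaxel, and 12 in cisplatin and cytochalasin D. In 5-FU 1 rose and 0 fell, against 4.44% and 11.2% of all features. In cytarabine 0 rose and 2 fell (10.9% and 11.1% of all features), in cisplatin 2 and 3 (8.54% and 7.8%), in paclitaxel 0 and 2 (2.65% and 4.05%), and in cytochalasin D 0 and 0 (4.38% and 6.33%). Their median ratio was −0.033, −0.10, −0.19, −0.16 and −0.19 in the same order, where the median of all features was 0.0088, 0.043, 0.014, 0.023 and 0.019. In cytochalasin D, 6 of the 12 had an unadjusted p under 0.05 in limma, as had 1386 of all 4835 features. Some genes called in no drug against untreated RNA passed in a pair of drugs. ABCG2 was lower in cisplatin than in cytochalasin D (−0.52 ± 0.12, limma adjusted p = 0.0428, 7.74% of all features called). Its probe 2081843 read −0.18 and −0.14 in cisplatin and 0.12 and 0.21 in cytochalasin D. Its probe 1501080 read −0.48 on 1 cisplatin array, had no value on the other, and read 0.33 and 0.44 in cytochalasin D. The size of the ABCG2 gap thus depends on this incomplete probe, and the pair was not tested for each probe alone. TAP2 was higher in cytarabine than in cisplatin (0.52 ± 0.13, limma adjusted p = 0.0361, 22.1% called). ABCE1 was lower in cytarabine than in cisplatin (−0.39 ± 0.11, 0.0478) and higher in cisplatin than in paclitaxel (0.57 ± 0.11, 0.0364, 5.8% called).

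ABCC4, which exports cyclic nucleotides and nucleoside analogues, read −0.81 and −0.89 on the cytarabine arrays, −0.63 and −0.54 in paclitaxel, −0.31 and −0.25 in cisplatin, 0.15 and 0.22 in cytochalasin D, and 0.067, −0.059, 0.39 and 0.50 in 5-FU. The cytarabine, paclitaxel and cisplatin arrays did not overlap with each other or with the rest. ABCC4 fell in cytarabine by 1.07 (SE 0.066, limma adjusted p = 0.000212), in paclitaxel by 0.80 (SE 0.066, adjusted p = 0.00187) and in cisplatin by 0.50 (SE 0.066, adjusted p = 0.00328). Cytochalasin D gave −0.035 ± 0.066 (adjusted p = 0.77), unlike ABCB4, whose ratio there was −0.84. ABCC4 rose in 5-FU by 0.22 ± 0.054 (limma adjusted p = 0.0269), a call lost without 5-FU replicate 1 or 2 and without cytochalasin D replicate 1 or 2 (values 0.22 to 0.23, adjusted p of 0.0504 to 0.166). The forward 5-FU arrays alone gave 0.0039 for ABCC4 (adjusted p = 0.968). The F over 4 drugs also passed for ABCC4 (limma adjusted p = 0.00217).

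ABCD4, involved in lysosomal cobalamin release, fell in cytarabine by 1.09 (SE 0.14, limma adjusted p = 0.00384), in cisplatin by 0.67 (adjusted p = 0.021) and in paclitaxel by 0.63 (adjusted p = 0.0448), and had 1 complete 5-FU replicate. With each array taken as a separate observation these ABCD4 calls were lost (limma adjusted p of 0.128, 0.475 and 0.593), and without the channel term those in cisplatin and paclitaxel were (0.194 and 0.286). Its cisplatin call was lost without cisplatin replicate 1 or 2 (limma adjusted p of 0.0882 to 0.0902), and its paclitaxel call without 7 of the 9 replicates left out in turn (0.0553 to 0.179), the exceptions being those of cytochalasin D. ABCC3, an exporter of conjugated organic anions, fell in cisplatin by 0.88 (SE 0.16, limma adjusted p = 0.0107), which was lost without cisplatin replicate 2 (−0.74, 0.0776). TAP1, a subunit of the antigen peptide transporter, rose in cisplatin by 0.52 ± 0.10 (limma adjusted p = 0.0199), lost without cisplatin replicate 1 or 2 (0.48 to 0.56, 0.0689 to 0.0923).

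ABCF2, an ABC protein without membrane-spanning domains, rose in cisplatin by 0.46 ± 0.091 in the fit (limma adjusted p = 0.0154), although its 2 cisplatin arrays read 0.093 and −0.14. Its 5-FU arrays read 0.69 and 0.56 with treated RNA in channel 2 and −0.20 and −0.47 with the channels reversed, so the call rests on the channel term, and without that term the ABCF2 ratio was −0.024 (adjusted p = 0.868). It was also lost without cisplatin replicate 1 (0.34, limma adjusted p = 0.0998).

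**Figure D4:**
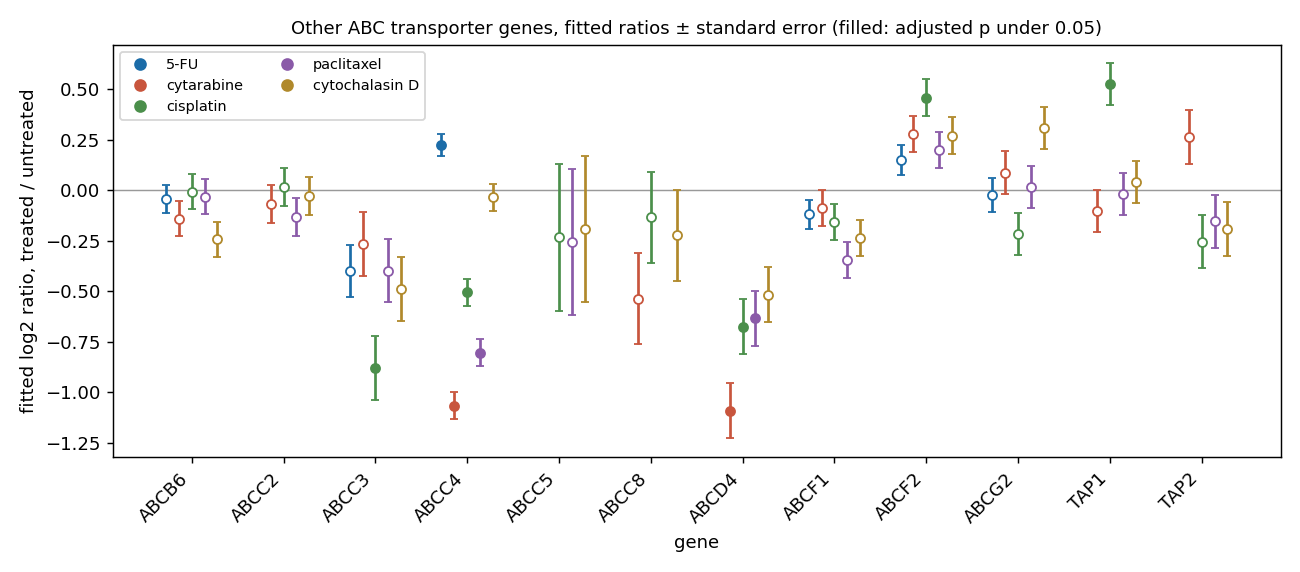
Fitted log2 ratio of treated over untreated RNA ± standard error (y axis) for 12 other ABC genes (x axis) by drug (colour), 2 replicates a drug; filled points have adjusted p under 0.05. ABCC4 and ABCD4 hold 7 of the filled points, the lowest in cytarabine at −1.07 and −1.09, and ABCC3, ABCF2 and TAP1 are filled in cisplatin alone.

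Genes of the pathways around these transporters are given by the same counts, and the shares of all features that rose and fell are repeated beside them. With at most 12 genes tested, 1 call moves such a count far. The list of sterol efflux genes and LXR targets includes partners of ABCA1 control. Of it, 1 of 5 rose and 1 fell in 5-FU (4.44% and 11.2% of all features), and 2 of 7 rose and 0 fell in cytarabine (10.9% and 11.1%). In cisplatin, paclitaxel and cytochalasin D 0 of 8 were called by limma (2, 0 and 0 at an unadjusted p under 0.05). Of all features 8.54% rose and 7.8% fell in cisplatin, 2.65% and 4.05% in paclitaxel, and 4.38% and 6.33% in cytochalasin D. The median of the list ran from −0.16 in 5-FU to 0.27 in cytarabine, where all features had 0.0088 and 0.043. LPCAT3, a phospholipid-remodelling enzyme, rose in 5-FU by 0.57 ± 0.15 (limma adjusted p = 0.0364). RXRA, the partner receptor of LXR, fell there by 0.37 (SE 0.089, adjusted p = 0.029) and rose in cytarabine by 0.43 ± 0.11 (adjusted p = 0.0299), and RXRB rose in cytarabine by 0.27 ± 0.081 (adjusted p = 0.0475).

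Of 9 tested regulators of ABCB1 transcription, 0 rose and 1 fell in 5-FU and in cytochalasin D. Of all features 4.44% rose and 11.2% fell in 5-FU, and 4.38% and 6.33% in cytochalasin D. In each of the other drugs 1 rose and 1 fell, against 10.9% and 11.1% of all features in cytarabine, 8.54% and 7.8% in cisplatin, and 2.65% and 4.05% in paclitaxel. The list's median ran from −0.16 in cytarabine to 0.038 in 5-FU. CEBPB, a leucine zipper factor, rose in cytarabine by 0.86 ± 0.095 (limma adjusted p = 0.00176) and in paclitaxel by 0.64 ± 0.095 (0.0107). HIF1A, the hypoxia factor, fell in 5-FU by 0.84 (SE 0.056, limma adjusted p = 5e-05) and rose in cisplatin by 0.62 ± 0.069 (0.00176). WT1, a zinc finger factor, fell in cytarabine by 0.66, in paclitaxel by 0.33 and in cytochalasin D by 0.47 (limma adjusted p of 0.00206, 0.0425 and 0.0115). HDAC1, a histone deacetylase, fell in cisplatin by 0.54 (SE 0.11, limma adjusted p = 0.0186). ABCB1 itself passed in none of these drugs.

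Of the mitochondrial iron and haem genes, the setting of ABCB10, 1 of 4 rose and 1 fell in 5-FU (4.44% and 11.2% of all features), and 2 of 6 rose and 1 fell in cisplatin (8.54% and 7.8%). In each of the other drugs 1 of 6 rose and 1 fell, against 10.9% and 11.1% of all features in cytarabine, 2.65% and 4.05% in paclitaxel, and 4.38% and 6.33% in cytochalasin D. The list's median lay between −0.015 in paclitaxel and 0.053 in cisplatin. HMOX1, which degrades haem, rose in all 5 drugs, from 0.38 ± 0.10 in cisplatin (limma adjusted p = 0.0427) to 2.45 ± 0.084 in 5-FU (3.87e-06). UROS, an enzyme of haem synthesis, fell in the 4 drugs where it could be tested, by 0.47 in cytarabine to 0.65 in cisplatin (limma adjusted p of 0.00928 to 0.0298). These 4 UROS ratios share 1 channel effect, taken from 1 complete 5-FU replicate, so they are not independent of each other. The UROS ratios without the channel term are not given here. ISCU, a scaffold for iron-sulphur clusters, rose in cisplatin by 0.52 ± 0.071 (0.00404), and CPOX, another haem enzyme, fell in 5-FU by 0.40 (SE 0.093, 0.0227). For ABCA3, the lamellar body and surfactant list had 1 testable gene, NAPSA, a protease that processes surfactant protein B. It rose in cytarabine by 0.54 ± 0.14 (limma adjusted p = 0.0313), where 10.9% of all features rose, and passed in no other drug.

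Of the non-ABC drug resistance genes, 0 rose in any drug, and 3 of 6 fell in 5-FU (11.2% of all features), 2 of 7 in cytarabine (11.1%), 1 of 7 in cisplatin (7.8%), 0 of 7 in paclitaxel (4.05%, and 3 of 7 at an unadjusted p under 0.05 in limma) and 1 of 7 in cytochalasin D (6.33%). The shares of all features that rose were 4.44%, 10.9%, 8.54%, 2.65% and 4.38% in the same order of drugs. The list's median lay between −0.23 in cytochalasin D and −0.14 in paclitaxel. SLC29A1, the nucleoside importer that carries cytarabine into cells, fell in cytarabine by 0.72 (SE 0.080, limma adjusted p = 0.00182) and in cytochalasin D by 0.44 (0.0169). MT1X, a metallothionein, GSTO1, a glutathione transferase, and SLC31A1, the copper importer, fell in 5-FU by 0.55, 0.46 and 0.42 (limma adjusted p of 0.00274, 0.0184 and 0.00177).

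Marker lists could be read only as ratios, so they do not check the cell type. Of all features, 4.44% rose and 11.2% fell in 5-FU, 10.9% and 11.1% in cytarabine, and 8.54% and 7.8% in cisplatin. In paclitaxel 2.65% rose and 4.05% fell, and in cytochalasin D 4.38% and 6.33%. With 1 to 3 markers of a list tested, a single call cannot be set apart from these shares. Epithelial markers had 1 rise of 3 tested in cytarabine (CLDN7, 0.56 ± 0.11, limma adjusted p = 0.0175) and 1 fall of 3 in cytochalasin D (KRT8, −0.30 ± 0.065, adjusted p = 0.0298), and 0 of 1 to 3 passed elsewhere in limma (0, 2 and 1 unadjusted in 5-FU, cisplatin and paclitaxel). Leukocyte markers had 1 call, CD14, of 1 tested in 5-FU (0.55 ± 0.13, limma adjusted p = 0.0265) and of 2 in cisplatin (0.68 ± 0.16, adjusted p = 0.0273). Fibroblast and endothelial markers, and the photoreceptor markers that go with ABCA4, had 0 calls in limma of 1 or 2 tested in each drug (unadjusted, at most 1 in a drug). Of the p53 targets used for the direction, 5 of 7 rose and 1 fell in 5-FU, 8 of 10 rose in cisplatin, 2 of 10 fell in cytarabine, 0 of 9 were called in paclitaxel (limma, 2 unadjusted) and 1 of 10 fell in cytochalasin D, and the 5-FU count follows from that rule. Among the 10 fitted in cisplatin, which do not include CDKN1A, the largest rises were MDM2 (2.89), DDB2 (1.89), PPM1D (1.74) and FAS (1.44).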

How the data were processed

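Each array compared treated and untreated RNA in 2 channels, and the values used are the log ratios per probe that the authors deposited, taken as log2. No source used here states their log base, numerator, normalization or spot filter, and spot intensities and signal over background were not analysed here. Of 8170 probes, the annotation gives 5930 a single gene, 79 more than 1, and 2161 no gene. Each array was centred on its median, probes of a gene were averaged, and the 5-FU arrays of both orientations gave a mean, the drug ratio, and a channel effect, which the other 4 drugs borrowed. Models were fitted across all 7739 features with limma 3.58.1 in R 4.3.3 and checked on simulated data. The ratio was tested against 0, which leaves out how untreated cultures vary, and since the error of the borrowed channel effect is assumed, errors for those 4 drugs may be too small. The genes, lists and tests were chosen with earlier results of these data known. Besides the 6 genes, those named are other ABC genes that passed against untreated RNA, up to 4 genes per list with the largest passing ratio, the 3 genes most alike, MDM2 and CDKN1A. METTL4 and CBLB ratios, the pair results of ABCG2, TAP2 and ABCE1, and the second passing drug of a listed gene, were picked after their values were seen.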

Additional observations from a re-analysis of the deposited data

Results flagged for a closer look

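ABCA1 probe 1467253 read −0.218 on 1 of the 4 5-FU arrays (replicate 2, channels reversed), far from the other 3, which read 0.045 to 0.069. The gap to the nearest of them was 0.917 of the range of the 4 arrays, above Dixon's 95% critical value for 4 values. Chance passes that value in about 1 in 20 groups.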

How the results depend on the processing

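The alternatives left out the channel term or the centring, took each array as an observation, gave all arrays a common spread, kept the probes measured on all 12 arrays, added a replicate block, or used robust moderation, 5-FU arrays of 1 orientation alone, a minimum absolute log2 ratio of 1, or each probe by itself (for pairs and the F, added after seeing the data), and each of the 10 replicates was left out in turn, assuming that a sample left alone varies as the others do. Of the 7 called results of the 6 genes, 2 were called under every alternative run, the ABCB4 fall in cytarabine and its difference between 5-FU and cytarabine. Of 32 results that were not called and were followed through the alternatives, 3 were called under some alternative and 18 changed sign under some. These 32 are ratios against untreated RNA and pairs of ABCB4. Uncalled pairs of the other genes entered only the counts of pair calls.

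With each array as an observation the genes called in 5-FU went from 0 to 1 (ABCB10), where 1313 of all 5193 features tested were called. In cytochalasin D they went from 1 to 0 under that setting, where 110 of 4893 features rose and 215 fell. A minimum ratio of 1 also gave 0 in cytochalasin D. Probes with all values, or each probe by itself, gave 1 call in cisplatin, 2 pair calls in place of 4 and 0 in place of 1 for the F. When probes with all values were kept, 399 of 3521 features rose in cisplatin and 366 fell. The replicate block gave 2 pair calls and changed no other call of the 6 genes, as did the reversed 5-FU arrays alone. Leaving out a replicate gave 0 to 1 calls in paclitaxel and in cytochalasin D, 2 to 4 pair calls, and 5 to 10 calls of the other ABC genes, which had 10 with all replicates. The cause was not tested, beyond the missing values of probe 4285457. Over all features, samples of 1 replicate number showed little shared deviation: differences between replicates correlated at −0.0611 to 0.0904 between drugs. Whether samples of 1 number were handled together cannot be read from these correlations, and the labels do not say. ABCF2 in cisplatin reversed without the channel term (−0.024).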
